A study of Mus musculus with 9 samples.

Results

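The 10 genes described here encode regulators of mitochondrial biogenesis, the process by which a cell makes more mitochondria and more of their proteins. They are *Ppargc1a*, *Ppargc1b*, *Ppara*, *Ppard*, *Esrra*, *Esrrg*, *Nrf1*, *Tfam*, *Tfb2m* and *Polrmt*, chosen by name for their known roles, and they are 10 of the 24571 genes used. All 10 were measured in each of 9 libraries of mRNA from the hearts of mouse embryos at E18.5, shortly before birth. The mice were C57BL/6N and carried 0, 1 or 2 copies of a *Ctcf* allele made with CRISPR/Cas9 that changes the CTCF protein at R567W. CTCF is a DNA-binding protein that shapes chromatin loops. The groups were wild-type, heterozygous (Ctcf +/R567W) and homozygous (Ctcf R567W/R567W), with 3 libraries each. The pregnant mice had been anaesthetised with Avertin before the embryos were taken. The mutation was present in all cells of the embryo, not in heart muscle alone. Whether a library came from 1 heart or from several was not given in the sources used here, so p-values measure only the spread between these libraries.

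PGC-1α (*Ppargc1a*) and PGC-1β (*Ppargc1b*) are coactivators: they bind no DNA themselves and are recruited by transcription factors, among them the PPAR and estrogen-related receptors and NRF1. Those factors act on nuclear genes of fuel oxidation and of the respiratory chain, and on the gene for TFAM, which packages mitochondrial DNA and starts its transcription together with TFB2M and the mitochondrial RNA polymerase POLRMT. The heart relies on this pathway around birth, when it turns from glucose and lactate to fatty acids as its main fuel.

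Promoter sequences from RefSeq (GRCm38.p6, 250 bases before to 50 after each start of transcription) were found for 9 of the 10 genes, in 13 entries, and not for *Ppargc1b*. They were searched on both strands for 8 short motifs bound by regulators of this pathway. The sequences that follow are shown because they hold matches for factors that are themselves members or partners of members. Each is written 5′ to 3′ on the strand of its gene, the capitals mark the match, and positions count from the start of transcription, with the first transcribed base as 1 and the base before it as −1.

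*Ppara*, chr15:85735735-85735764, plus strand, NRF1 site at −31: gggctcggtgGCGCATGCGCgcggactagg
*Esrra*, chr19:6921824-6921853, minus strand, NRF1 half-site at −34: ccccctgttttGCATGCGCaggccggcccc
*Tfb2m*, chr1:179546245-179546274, minus strand, NRF1 half-site at 14: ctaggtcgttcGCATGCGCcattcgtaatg
*Tfam*, chr10:71238073-71238102, minus strand, ETS site at −47: cctgccgcggaCCGGAAGtccgggcttccc
*Polrmt*, chr10:79746607-79746726, minus strand, NRF1 half-site at −133 and ETS site at −43: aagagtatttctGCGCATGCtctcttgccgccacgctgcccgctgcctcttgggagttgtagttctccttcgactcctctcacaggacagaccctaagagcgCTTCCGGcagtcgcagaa
*Ppargc1a*, chr5:51567757-51567786, minus strand, CRE half-site at −49: ggtgccctcccaCGTCActgagctccagtg
*Esrrg*, chr1:187608974-187609003, plus strand, MEF2 site at −22: taaaactttgCTATTTATAGtctacgcccg

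The NRF1 half-site, GCATGCGC, was in 4 of the 13 entries, those of *Ppara*, *Esrra*, *Tfb2m* and *Polrmt*, and in 2.71% of the 32851 RefSeq promoter entries of the mouse. The entries were not matched for GC content, which was 74.7%, 66.0%, 67.3% and 52.0% in these 4 promoters against a median of 52.7% for all. Enrichment was not tested. *Ppara* alone of the 9 genes held the full palindromic NRF1 site, which contains the half-site once on each strand and was in 0.971% of entries. The ETS site CCGGAAG, of the kind bound by GABP, was in *Tfam* and *Polrmt* and in 8.86% of entries. The CRE half-site TGACG, the short form of the sequence bound by CREB, was in *Ppargc1a*, *Ppara* and *Ppard* and in 20.8% of entries. The MEF2 site was in 1 of the promoters of *Esrrg* and in 0.164% of entries. The last 30 bases of that *Esrrg* entry, downstream of its RefSeq start, were not found in any GENCODE M21 transcript of the gene. None of the 13 entries held the nuclear receptor half-site AAGGTCA (4.72% of all entries), the E-box CACGTG (7.15%) or the YY1 site AAGATGGC (2.75%), which says only that these letters are not in those windows. By GENCODE M21, the windows shown for *Esrra*, *Polrmt* and *Ppargc1a* lie outside annotated genes, those of *Tfb2m* and *Tfam* overlap an exon of their own gene, and those of *Ppara* and *Esrrg* lie in an intron of their own gene, downstream of another start.

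**Figure D1:**
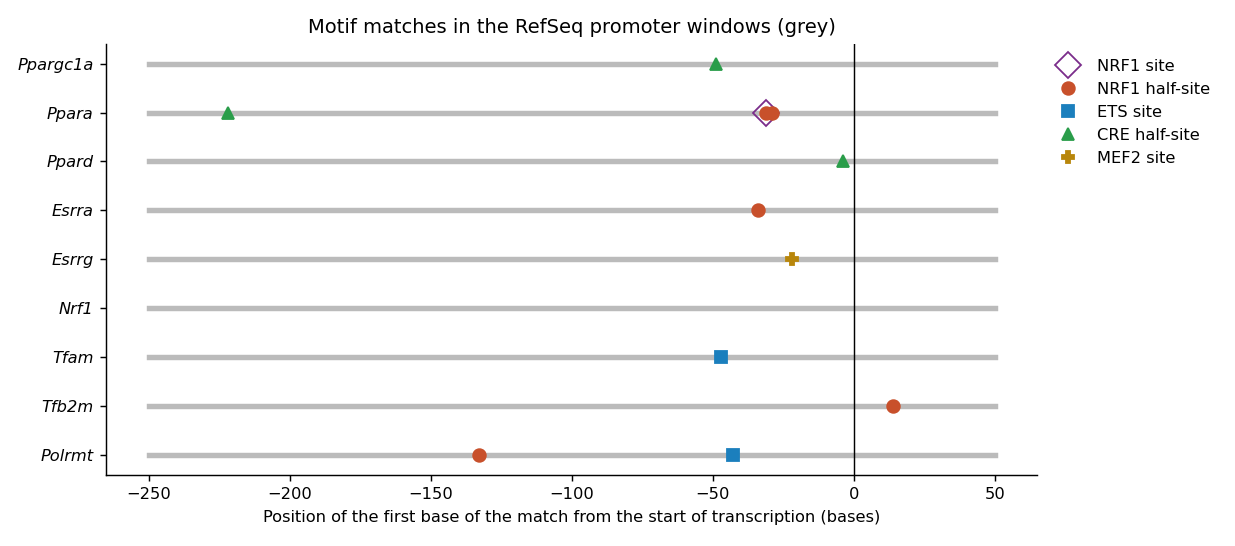
Position of each motif match in the promoter windows of the 9 genes, in bases from the start of transcription (vertical line). Each grey bar is the window of 1 gene, with the several entries of *Esrrg* and *Nrf1* laid over each other; matches lie within 50 bases of the start in *Ppargc1a*, *Ppard*, *Esrra*, *Esrrg*, *Tfam* and *Tfb2m*, *Ppara* and *Polrmt* hold 1 farther upstream as well, and *Nrf1* holds none.

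Levels are given in TPM, a relative transcript abundance that corrects for gene length and sums to the same total in every library, so the reads behind each level cannot be counted. Per library, 12946 to 14068 genes had at least 1 TPM. Because *Ctcf* carries a missense change, its level does not check the genotype labels. Heart muscle markers summed to 27022.5 to 39881.9 TPM with none of the 12 at 0, the lowest in homozygous replicate 3. Some libraries held transcripts of neighbouring organs: 15 thymus markers summed to 610.04 TPM in homozygous replicate 3 and to at most 3.3 TPM elsewhere, and 15 liver markers summed to 3281.14 TPM in heterozygous replicate 1. The 12 lung and airway markers summed to 2970.61 TPM in wild-type replicate 1 and to 1443.69 in heterozygous replicate 1, mostly *Scgb3a2* (2354.58 and 1053.07 TPM). Elsewhere they summed to 251.01 to 391.72 TPM, mostly *Hopx*. *Scgb3a2* was also at 42.55 TPM in homozygous replicate 1 and 33.12 in wild-type replicate 2. Both of these stayed in the fit described below without 3 libraries. Transcripts of *Xist* and of the Y chromosome showed that the 3 heterozygous embryos, wild-type replicate 1 and homozygous replicate 1 were female and the other 4 male, so all heterozygous values are from females. Of 10 listed markers of brown fat, another tissue rich in PGC-1α, 9 were measured. The defining marker *Ucp1* was at most 0.13 TPM and at 0 in 7 libraries. The fat marker *Adipoq* was at 2.66 TPM in homozygous replicate 2, 1.33 TPM in heterozygous replicate 3 and at most 0.51 TPM elsewhere. *Plin1*, *Cidec* and *Elovl3* reached at most 0.46 TPM. *Cidea* was at 6.55 to 10.42 TPM and *Prdm16* at 2.84 to 8.09 TPM, both highest in homozygous replicate 2. *Dio2* was at 0.92 to 2.41 TPM. The 9 markers, mostly *Fabp4*, which blood vessels also express, summed to 326.5 to 436.21 TPM. Homozygous replicate 2 also held the highest value of 4 members (*Esrra*, *Tfb2m*, *Nrf1* and *Esrrg*) and heterozygous replicate 3 that of 3 (*Polrmt*, *Ppargc1b* and *Ppara*). Genes in general were high there too. The median-ratio factor, the median ratio of a library's genes to their geometric mean over the 9 libraries, was 1.14 and 1.08 in these libraries. It was 0.84 in wild-type replicate 1, the lowest. The part of fat in these values was not tested. In bulk tissue, fewer cells of a type and less RNA per cell cannot be told apart.

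By mean level over the 9 libraries, *Esrra* was highest at 73.2 TPM, above 90.5% of tested genes, followed by *Tfam* at 35.2 TPM and *Ppargc1a* at 30.2 TPM, then by *Polrmt* at 21.3 TPM and *Tfb2m* at 17.9 TPM, while *Nrf1*, *Esrrg*, *Ppargc1b*, *Ppard* and *Ppara* lay between 11.5 and 13.5 TPM, near the middle of the tested genes. Neighbours in this order were compared within libraries by an exact two-sided sign-flip permutation test of the log2 ratio, with p-values adjusted over the 9 neighbouring pairs. The order was taken from the same 9 libraries, and the p-values make no allowance for that choice of pairs. *Esrra* exceeded *Tfam* in 9 of 9 libraries (adjusted exact p = 0.0176, mean log2 ratio 1.05 ± 0.20 SD), and *Tfb2m* exceeded *Nrf1* in 9 of 9 (adjusted exact p = 0.0176, 0.40 ± 0.16). *Ppargc1a* exceeded *Polrmt* in 7 of 9 libraries (adjusted exact p = 0.0469, 0.49 ± 0.42). The order of *Tfam* and *Ppargc1a* (6 of 9, adjusted exact p = 0.246), of *Polrmt* and *Tfb2m* (5 of 9, 0.267), and of each neighbouring pair from *Nrf1* down to *Ppara* (0.357 to 0.754) did not stand out from the spread between libraries. The genes also differed in how far libraries lay apart: the highest value was 1.38 times the lowest for *Nrf1*, 1.40 times for *Tfam* and 1.41 times for *Tfb2m*, against 2.002 times for *Polrmt*, 2.08 times for *Ppargc1b*, 2.12 times for *Ppargc1a* and 2.71 times for *Ppara*.

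**Figure D2:**
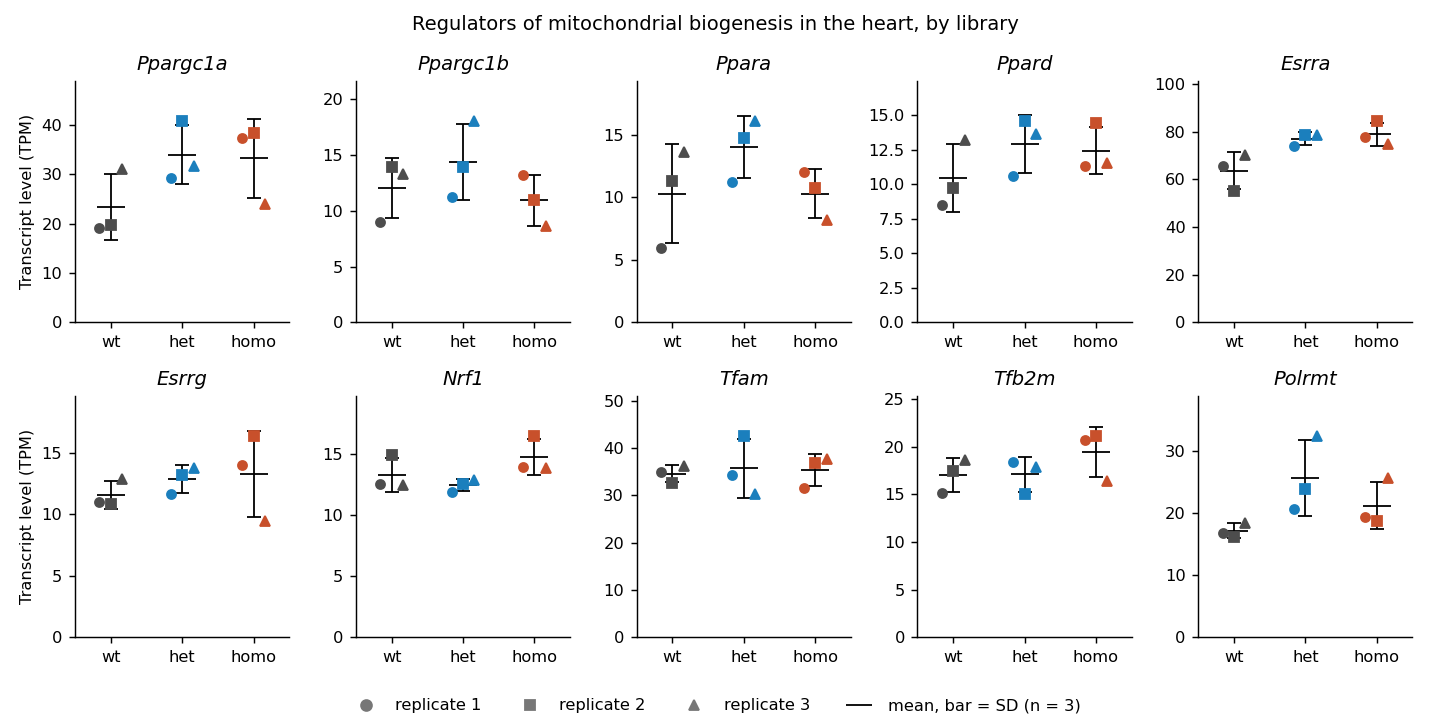
TPM of the 10 genes in every library, by genotype (wt, wild-type; het, heterozygous; homo, homozygous); symbols are replicates, bars are mean ± SD with n = 3, and each axis starts at 0. Genotypes overlap for most genes, and *Esrra* and *Polrmt* are the 2 genes whose 3 wild-type values all lie below both mutant groups.

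*Ppargc1a* lies on chromosome 5 (51454250 to 51567726, minus strand, mm10) and encodes PGC-1α, the coactivator most closely tied to mitochondrial biogenesis in muscle. It was at 19.2, 19.7 and 31.1 TPM in wild-type replicates 1 to 3, at 29.35, 40.76 and 31.77 in heterozygous replicates, and at 37.41, 38.3 and 24.06 in homozygous replicates. Wild-type replicate 3 and homozygous replicate 3 each stood away from the other libraries of their group, toward the other group, so wild-type and homozygous values overlapped. Group means were 23.3 ± 6.73, 34.0 ± 6.01 and 33.3 ± 7.98 TPM (SD, n = 3). By limma on log2(TPM + 1), the homozygous minus wild-type difference was 0.50 (95% interval −0.01 to 1.003, adjusted p = 0.203), higher than for 84.7% of tested genes. The heterozygous minus wild-type difference was 0.54 (0.04 to 1.05, adjusted p = 0.672), higher than for 96.3%.

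*Ppargc1b* encodes PGC-1β, the related coactivator that is prominent in baseline mitochondrial content. Its values were 8.97, 13.91 and 13.31 TPM in the wild-type replicates, 11.2, 13.88 and 18.01 in heterozygous replicates and 13.18, 10.92 and 8.66 in homozygous replicates. The 3 groups overlapped, with the highest value in heterozygous replicate 3 and the lowest in homozygous replicate 3. The homozygous minus wild-type difference was −0.13 (−0.61 to 0.36, adjusted p = 0.719), in the direction opposite to *Ppargc1a*. The homozygous minus heterozygous difference was −0.36 (−0.84 to 0.12, adjusted p = 0.776), and the heterozygous minus wild-type difference was 0.23 (−0.25 to 0.72, adjusted p = 0.719), or 0.049 without wild-type replicate 1.

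The PPAR receptors are activated by fatty acids and act on genes of lipid uptake and oxidation. *Ppara* (chromosome 15, 85734983 to 85802819, plus strand) was at 5.93, 11.33 and 13.62 TPM in the wild-type replicates, 11.25, 14.77 and 16.08 in heterozygous replicates and 11.99, 10.71 and 8.21 in homozygous replicates. Wild-type replicate 1, with lung transcripts, held its lowest value, and without that library the homozygous minus wild-type difference went from 0.06 (−0.53 to 0.64, adjusted p = 0.905) to −0.26 (adjusted p = 0.532). The heterozygous minus wild-type difference of *Ppara* was 0.47 (−0.11 to 1.05, adjusted p = 0.672), or 0.15 without wild-type replicate 1. Its homozygous minus heterozygous difference was −0.41 (−0.99 to 0.17, adjusted p = 0.776). *Ppard* (chromosome 17, 28232700 to 28301474, plus strand) was at 8.47, 9.72 and 13.18 TPM in the wild-type replicates, 10.59, 14.56 and 13.62 in heterozygous replicates and 11.34, 14.4 and 11.53 in homozygous replicates. All groups of *Ppard* overlapped. Its differences from wild-type were 0.24 in homozygous (−0.16 to 0.65, adjusted p = 0.400) and 0.29 in heterozygous hearts (−0.11 to 0.70, adjusted p = 0.672).

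The estrogen-related receptors are orphan receptors that act with the PGC-1 coactivators on genes of the respiratory chain. *Esrra*, which encodes ERRα (chromosome 19, 6910977 to 6921813, minus strand), was at 65.53, 55.21 and 70.28 TPM in wild-type replicates. It was at 73.93, 78.51 and 78.67 in heterozygous replicates and at 77.59, 84.33 and 74.97 in homozygous replicates. On TPM as deposited, every mutant library was above every wild-type library, by 73.93 against 70.28 at the nearest. The homozygous minus wild-type difference was 0.31 (0.06 to 0.56, adjusted p = 0.145), and the heterozygous minus wild-type difference was 0.28 (0.03 to 0.53, adjusted p = 0.672). The median difference over all tested genes was itself 0.23 and 0.15 in these comparisons, so *Esrra* stood 0.08 and 0.13 above it. With libraries scaled by the median-ratio factor, the homozygous minus wild-type difference of *Esrra* was 0.07. Whether its groups still lay apart after scaling was not computed. The last 73 bases of *Esrra* also overlap *Trmt112* on the other strand, at 27.28 to 41.67 TPM. As no strand setting is stated, reads of the pair there cannot be told apart. *Esrrg*, which encodes ERRγ (chromosome 1, 187608791 to 188214885, plus strand), was at 11.03, 10.85 and 12.87 TPM in the wild-type replicates, 11.63, 13.21 and 13.8 in heterozygous and 14.06, 16.38 and 9.44 in homozygous replicates. Homozygous replicates 2 and 3 were its highest and lowest libraries. Its homozygous minus wild-type difference was 0.16 (−0.25 to 0.56, adjusted p = 0.586).

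*Nrf1* (chromosome 6, 30047988 to 30153458, plus strand) encodes nuclear respiratory factor 1, which binds a palindrome in the promoters of many nuclear genes for mitochondrial proteins. Its values were 12.57, 14.92 and 12.49 TPM in the wild-type replicates, 11.95, 12.6 and 12.89 in heterozygous and 13.96, 16.5 and 13.9 in homozygous replicates. All homozygous values lay above all heterozygous values, while wild-type values overlapped both. The homozygous minus heterozygous difference was 0.22 (−0.06 to 0.50, adjusted p = 0.767) and the homozygous minus wild-type difference 0.14 (−0.14 to 0.42, adjusted p = 0.476).

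*Tfam* (chromosome 10, 71225464 to 71238280, minus strand), whose product coats mitochondrial DNA, had nearly the same mean in the 3 genotypes. It was at 34.98, 32.59 and 36.09 TPM in the wild-type replicates, 34.23, 42.5 and 30.32 in heterozygous and 31.57, 36.89 and 37.58 in homozygous replicates. Means were 34.6 ± 1.79, 35.7 ± 6.22 and 35.3 ± 3.29 TPM (SD, n = 3). The homozygous minus wild-type difference was 0.03, with a 95% interval from −0.28 to 0.34 (adjusted p = 0.906), so folds between 0.825 and 1.26 on the TPM + 1 scale were within the interval. *Tfb2m* (chromosome 1, 179528055 to 179546267, minus strand), the factor that melts the mitochondrial promoter, was at 15.14, 17.42 and 18.6 TPM in the wild-type replicates, 18.36, 15.02 and 17.9 in heterozygous and 20.76, 21.12 and 16.43 in homozygous replicates. Homozygous replicates 1 and 2 were above all other libraries and replicate 3 was within the wild-type range, with a difference of 0.18 (−0.14 to 0.49, adjusted p = 0.432). Of the 31-base words of its transcripts, 35.9% also occur in other transcripts, chiefly of the pseudogene *Gm1818*, which was listed at 0.09 to 0.55 TPM, so the level of *Tfb2m* is uncertain by however many reads were divided between them.

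*Polrmt* (chromosome 10, 79736123 to 79746581, minus strand) encodes the polymerase that transcribes mitochondrial DNA. It was at 16.84, 16.19 and 18.49 TPM in the wild-type replicates, 20.66, 23.84 and 32.42 in heterozygous replicates and 19.38, 18.71 and 25.6 in homozygous replicates. As with *Esrra*, every mutant library was above every wild-type library on TPM as deposited, by 18.71 against 18.49 at the nearest. Replicate 3 was the highest in each group. The heterozygous minus wild-type difference of *Polrmt* was 0.53 (limma, 0.14 to 0.92, unadjusted p = 0.0129, adjusted p = 0.672), higher than for 96.0% of tested genes. Without heterozygous replicate 3 that difference was 0.35. The homozygous minus wild-type difference was 0.28 (−0.11 to 0.67, adjusted p = 0.325), and the homozygous minus heterozygous difference was −0.25 (−0.64 to 0.14, adjusted p = 0.784), or −0.075 without heterozygous replicate 3. With libraries scaled by the median-ratio factor, the homozygous minus wild-type difference of *Polrmt* was 0.050, and overlap after scaling was not computed.

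Across the 10 genes, no member passed the test in any comparison (limma, Benjamini-Hochberg over 13682 genes, adjusted p under 0.05). For homozygous against wild type, 0 of 10 were called against 0.336% of all tested genes. The background was 0.0146% for heterozygous against wild type, 0.0439% for homozygous against heterozygous and 0.607% for a linear change per mutant allele. At an unadjusted p under 0.05, homozygous against wild type gave 1 member (*Esrra*; 25% of all genes) and heterozygous against wild type gave 3 (*Ppargc1a*, *Esrra* and *Polrmt*; 6.87%). Homozygous against heterozygous gave 0 (7.15%) and the change per allele gave 1 (*Esrra*; 27%). Groups did not overlap for 2 members in homozygous against wild type (*Esrra* and *Polrmt*; 24.7% of all genes), for the same 2 in heterozygous against wild type (13.8%), and for 1 in homozygous against heterozygous (*Nrf1*; 15.9%). These shares rest on libraries that the comparisons share, so the wild-type values of *Esrra* and *Polrmt* enter both of their differences. Overlap was judged only on TPM as deposited.

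A shift common to most genes has to be set beside these values. The median log2 difference over all tested genes was 0.23 for homozygous against wild type, and 81.7% of genes were above 0. The median over the 10 members was 0.17, and 4 of 10, *Ppargc1a*, *Ppard*, *Esrra* and *Polrmt*, were above the median of all genes. For heterozygous against wild type the medians were 0.26 for the members and 0.15 for all genes, with 6 of 10 members above. For homozygous against heterozygous they were −0.02 and 0.08, with 2 of 10 above (*Nrf1* and *Tfb2m*). Under a scaling of the libraries that brings the median of all genes to 0.02, the homozygous minus wild-type differences of *Ppara*, *Esrrg*, *Nrf1*, *Tfam* and *Tfb2m* turned from above to below 0, while those of *Ppargc1a* (0.26), *Esrra* (0.07), *Polrmt* (0.050) and *Ppard* (0.021) stayed above 0, *Ppard* being below 0 after quantile normalization. Without the 3 libraries with transcripts of other organs, on TPM as deposited, the homozygous minus wild-type difference was 0.59 for *Ppargc1a* (adjusted p = 0.207), 0.37 for *Esrra* (adjusted p = 0.220) and 0.13 for *Polrmt* (adjusted p = 0.658). With the sex of the embryo in the model, the heterozygous minus wild-type difference was 0.68 for *Ppara*, 0.60 for *Polrmt*, 0.56 for *Ppargc1a*, 0.47 for *Ppard*, 0.28 for *Ppargc1b* and 0.27 for *Esrra* (adjusted p = 0.634 to 0.724), that of *Ppard* having been 0.29 without it. As all heterozygous libraries were female, the sex term rests on wild-type replicate 1 and homozygous replicate 1 against the males of their groups. Wild-type replicate 1 was also the library with lung transcripts and the lowest value of *Ppara*.

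**Figure D3:**
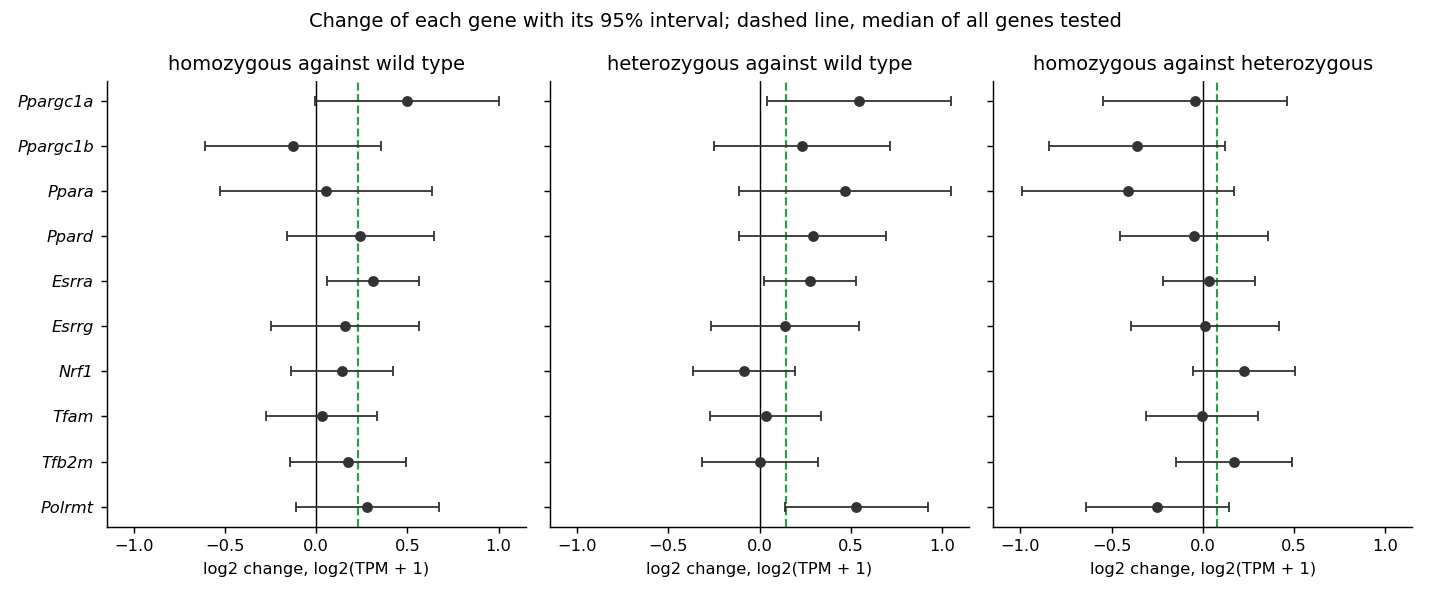
Difference in log2(TPM + 1) of the 10 genes with its 95% interval in 3 comparisons; the solid line is 0 and the dashed line the median of all tested genes. For homozygous against wild type the interval of *Esrra* alone excludes 0, at 0.31 (0.06 to 0.56), and the dashed line at 0.23 lies within all 10 intervals.

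Ratios of members within a library do not depend on how libraries are scaled, and 5 were compared by an exact two-sided permutation test over libraries, which with 3 against 3 cannot go below p = 0.1. The ratio of *Ppargc1a* to *Ppargc1b*, the PGC-1 coactivators, was 2.14, 1.42 and 2.34 in wild-type, 2.62, 2.94 and 1.76 in heterozygous and 2.84, 3.51 and 2.78 in homozygous replicates. All 3 homozygous ratios were above all 3 wild-type ratios, also in homozygous replicate 3, where both genes were low. The log2 difference was 0.66, with exact p = 0.1, the smallest the design allows, and 0.5 after adjustment over the 5 ratios of the comparison. Without wild-type replicate 2 the difference was 0.44.

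The 2 ratios with *Polrmt* as denominator did not overlap between heterozygous and wild-type libraries, at the same smallest p. *Polrmt* by itself did not overlap in this comparison either. Its log2 difference was 0.53, against 0.03 for *Tfam* and 0.003 for *Tfb2m*, so both ratios largely repeat the difference of *Polrmt*. The share of other gene pairs without overlap was not computed. *Tfam* to *Polrmt* was 2.08, 2.01 and 1.95 in wild-type, 1.66, 1.78 and 0.935 in heterozygous and 1.63, 1.97 and 1.47 in homozygous replicates. Heterozygous ratios were below all wild-type ratios, with a log2 difference of −0.52 (exact p = 0.1, adjusted 0.25), which was −0.23 without heterozygous replicate 3. *Tfb2m* to *Polrmt* was 0.899, 1.08 and 1.01 in wild-type, 0.889, 0.630 and 0.552 in heterozygous and 1.07, 1.13 and 0.642 in homozygous replicates. The heterozygous and wild-type values again did not overlap, by 0.889 against 0.899 at the nearest, with a log2 difference of −0.55 (exact p = 0.1, adjusted 0.25). *Ppara* to *Ppard*, with group means of 0.966, 1.09 and 0.838, and *Esrrg* to *Esrra*, with 0.183, 0.167 and 0.167, overlapped between all genotypes.

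**Figure D4:**
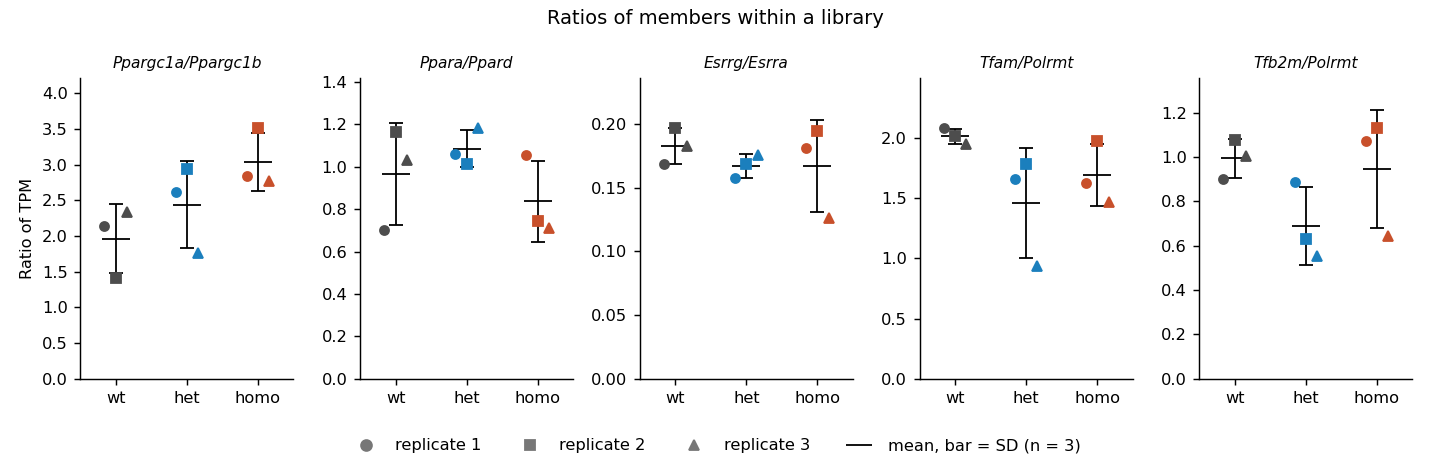
Ratio of TPM of 5 pairs of genes within each library, by genotype; symbols are replicates and bars are mean ± SD with n = 3. *Ppargc1a* to *Ppargc1b* is 1.42 to 2.34 in wild-type and 2.78 to 3.51 in homozygous libraries, and both ratios to *Polrmt* are lowest in heterozygous replicate 3.

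The wider pathway was described with 5 lists of genes. No gene of any list was called in any comparison, so for homozygous against wild type they are given by their counts at an unadjusted p under 0.05 and by their medians beside the median of all genes, 0.23. Among partners and upstream regulators of the 10 genes, 35 of 36 were tested, 16 had an unadjusted p under 0.05 (25% of all genes did) and all 16 were higher. The median of this list was 0.33, and 27 of 35 genes were above the median of all genes. The list summed to 728.94 to 992.15 TPM in the wild-type replicates, 969.49 to 1058.64 in heterozygous and 929.34 to 1199.73 in homozygous replicates. Among markers of other cells of the heart, 9 endothelial markers, none at 0 in any library, summed to 388.24 to 528.93, 478.88 to 592.55 and 470.6 to 663.12 TPM in the same order. The sums of the list and of the endothelial markers were both lowest in wild-type replicate 1 and highest in homozygous replicate 2. So was the median-ratio factor over all genes, at 0.84 and 1.14, so this order is shared with genes in general. The 8 fibroblast markers, none at 0, had sums of 1271.98 to 1528.02, 1100.58 to 1781.62 and 855.88 to 1928.15 TPM. Their sum was also highest in homozygous replicate 2, but it was lowest in homozygous replicate 3. The 9 macrophage markers, none at 0, summed to 62.97 to 87.82, 50.12 to 87.38 and 71.32 to 97.47 TPM, highest in homozygous replicate 2 and lowest in heterozygous replicate 2. The 9 red cell markers measured, none at 0, summed to 2853.72 to 14605.7 TPM in wild-type, 5114.17 to 15546.5 in heterozygous and 4306.22 to 5150.1 in homozygous replicates. The part of these cells in the list's values was not tested. Its highest named genes were *Gabpb2*, a subunit of GABP, at 8.23 ± 2.01 TPM in wild-type and 14.8 ± 3.13 in homozygous hearts (SD, n = 3; log2 difference 0.78 ± 0.19 SE, adjusted p = 0.0983), and *Lpin1*, an enzyme of lipid synthesis that also acts as a coactivator with PGC-1α, at 4.63 ± 0.719 and 7.75 ± 2.39 TPM (0.61 ± 0.21, adjusted p = 0.138). *Perm1*, a muscle regulator induced by PGC-1 and ERR, was at 30.2 ± 6.33 and 30.5 ± 3.14 TPM (0.03 ± 0.15), and *Prkaa2*, a catalytic subunit of AMPK, at 38.9 ± 9.05 and 42.6 ± 9.61 TPM (0.13 ± 0.20). These were the lowest of the list by the rule for naming.

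The genes that express and maintain mitochondrial DNA had a median of 0.19 over 24 genes, of which 5 had an unadjusted p under 0.05, all higher, and 9 were above the median of all genes. *Polg*, the mitochondrial DNA polymerase, was at 22.8 ± 4.97 TPM in wild-type and 32.4 ± 3.33 in homozygous hearts (0.50 ± 0.16, adjusted p = 0.130), and *Mterf4*, a factor of mitochondrial ribosome assembly, at 9.91 ± 2.11 and 14.1 ± 1.35 TPM (0.48 ± 0.16, adjusted p = 0.129). *Mrpl12*, a mitochondrial ribosomal protein, was at 163 ± 15.7 and 147 ± 15.3 TPM (−0.15 ± 0.11), and *Tfb1m*, the relative of TFB2M that methylates mitochondrial ribosomal RNA, at 7.25 ± 0.848 and 6.48 ± 0.459 TPM (−0.14 ± 0.15).

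PPAR target genes, 24 of 25 tested, had a median of 0.22, with 5 higher and 1 lower at an unadjusted p under 0.05 and 12 above the median of all genes. *Cpt1a*, which admits fatty acids to mitochondria, was at 17.5 ± 3.74 TPM in wild-type and 27.5 ± 5.41 in homozygous hearts (0.63 ± 0.18, adjusted p = 0.112), and *Ucp2*, an inner membrane carrier, at 34.3 ± 4.64 and 48.98 ± 12.3 TPM (0.48 ± 0.19, adjusted p = 0.164). *Fabp3*, the fatty acid binding protein of heart muscle, was the 1 lower gene, at 1611 ± 166 and 1251 ± 98.3 TPM (−0.36 ± 0.10, adjusted p = 0.113). *Acot2*, a mitochondrial thioesterase, was at 15.2 ± 1.49 and 14.3 ± 2.98 TPM (−0.09 ± 0.17).

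The 31 target genes of NRF1, GABP and ERR, mostly of the respiratory chain and citric acid cycle, had a median of −0.01, and 0 of 31 were above the median of all genes. The distance of the list's median from that of all genes was −0.24, and it was −0.022 after quantile normalization and −0.13 without the filter on low values. At an unadjusted p under 0.05, 0 were higher and 2 lower. *Hspe1*, a mitochondrial chaperonin, was at 245 ± 8.38 TPM in wild-type and 203 ± 24.8 in homozygous hearts (−0.28 ± 0.11, adjusted p = 0.154), and *Cycs*, cytochrome c, at 230 ± 12.6 and 195 ± 7.44 TPM (−0.24 ± 0.09, adjusted p = 0.148). *Alas1*, the first enzyme of haem synthesis, was at 114 ± 23.0 and 132 ± 11.9 TPM (0.23 ± 0.15), and *Atp5b*, the catalytic subunit of ATP synthase, at 6269 ± 850 and 6920 ± 1588 TPM (0.12 ± 0.16). Homozygous replicate 3 had both the lowest summed level of this list, 21680.7 TPM, and the lowest heart muscle marker sum, and the part of its other cells in the values was not tested.

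The 13 mitochondrially encoded mRNAs, the products of transcription by POLRMT, TFAM and TFB2M, took 26.0% ± 1.48 of TPM in the wild-type replicates, 24.4% ± 2.14 in heterozygous and 24.0% ± 3.15 in homozygous libraries (SD, n = 3), and the groups overlapped. Their median difference was −0.18, 0 of 13 were above the median of all genes, and 1 had an unadjusted p under 0.05. The distance of this median from that of all genes was −0.41. It was −0.25 without homozygous replicate 1, −0.44 with median-ratio scaling and −0.42 after rescaling without mitochondrially encoded and haemoglobin genes. After quantile normalization it was −0.0087, but that method gives the same ranks the same values in every library. It therefore cannot show a change in genes that keep their rank. The 1 gene was *mt-Co2*, at 9932 ± 1697 TPM in wild-type and 7687 ± 246 in homozygous hearts (−0.36 ± 0.11, adjusted p = 0.125), and *mt-Nd4*, at 9919 ± 1016 and 11169 ± 1570 TPM, was the highest of the list (0.17 ± 0.11, adjusted p = 0.355). Between them lay *mt-Nd1* at −0.31 ± 0.16 and *mt-Cytb* at 0.02 ± 0.10.

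**Figure D5:**
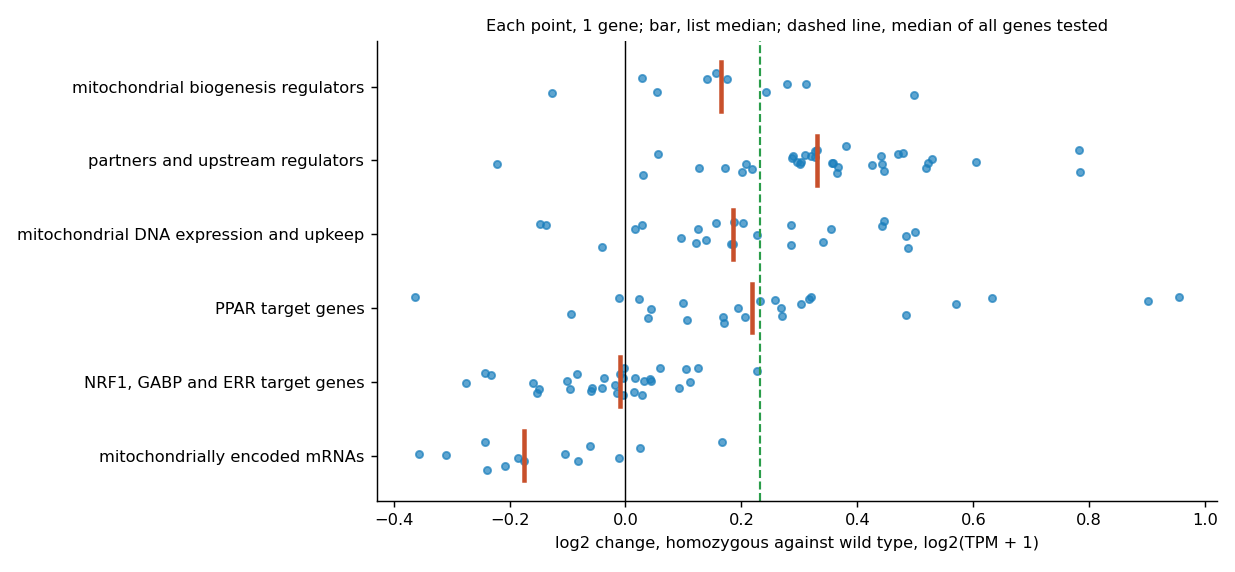
Difference in log2(TPM + 1), homozygous minus wild-type, of each tested gene of the 10 regulators and of 5 pathway lists; points are genes, spread vertically only to be visible, bars are list medians and the dashed line is the median of all tested genes, 0.23. All 31 NRF1, GABP and ERR targets and all 13 mitochondrially encoded mRNAs lie left of the dashed line, and 27 of 35 partners and upstream regulators lie right of it, on TPM as deposited. With median-ratio scaling the medians of these targets and of the mitochondrially encoded mRNAs are −0.27 and −0.44 from that of all genes. After quantile normalization, which gives the same ranks the same values in every library, they are −0.022 and −0.0087 from it.

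The genes most like *Ppargc1a* and *Tfam* across the 9 libraries were found by Pearson's r of log2(TPM + 1) over the 9951 genes whose mean reached 5 TPM, as a description, since all values of a library share its scaling and composition. For *Ppargc1a* they included *Ahnak* (0.990), *Ppp1r3c* (0.988), *Tbc1d4* (0.988) and *Lrrc58* (0.984), and 215 genes had r above 0.9. *Ppard* was the most like it among the members, at 0.845, and *Nrf1* the least, at 0.068. For *Tfam*, whose libraries differed little, no gene reached 0.9, and the most like were *Lsm6* (0.819), *Enkd1* (0.798), *Rps12-ps3* (0.750), *Tmem29* (0.742) and *Tmem141* (0.740). Among the members *Ppard* was the most like *Tfam*, at 0.352, and *Tfb2m* the least, at −0.444.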

How the data were processed

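Each genotype was represented by 3 libraries of captured mRNA from embryonic hearts. Per the labels and the study's methods, reads were trimmed (Trim Galore), aligned to mm10 (STAR) and quantified per gene (RSEM), and the table deposited by the authors holds TPM for every gene and library. The annotation and strand setting are not given in the sources used here. Of 24597 symbols, 26 read as dates and were dropped. DESeq2, used by the authors, needs counts and was not run.

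The log2 of TPM + 1 was analysed for 13682 genes whose mean over the 9 libraries was 1 TPM or more. A single linear model of genotype, shared by all libraries, was computed in limma (v3.58.1), with an eBayes trend, under R (v4.3.3) and was tested on simulated data. Tests were two-sided, with Benjamini-Hochberg adjustment over all genes. Differences on this scale understate those of low genes. TPM keeps no depth, so the spread between libraries is the only measure of precision. Replicate numbers were not taken as pairs in the main fit, since the titles do not give them as a pairing. Same-numbered libraries deviated together (r above 0.1) in 2 of 9 pairs, against 1 of 18 other pairs across groups. The highest r was 0.36 for same-numbered and 0.12 for other pairs. The pair at 0.36 was wild-type replicate 1 and heterozygous replicate 1, both with lung transcripts. Whether the numbers mark pairs, and whether some libraries share a litter or batch, is not known. A fit with the number as a block is given below.

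The members and lists were chosen with earlier results of these data known. All 10 members were named, and from each list the 2 highest and 2 lowest log2 changes of homozygous against wild type among genes whose mean reached 5 TPM. The 5 genes most like *Ppargc1a* and *Tfam* by Pearson's r were also named, except 1 that is not reported here. For the other comparisons a member's difference was given at a size of at least 0.2 on the log2 scale. Gene positions came from GENCODE M21 on the same build, and promoters from RefSeq (GRCm38.p6). Alternatives varied the pseudocount, filter, scaling, model and libraries.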

Additional observations from a re-analysis of the deposited data

How the results depend on the processing

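Under 22 alternatives, members were called in 3 instances. With library weights estimated by limma, 2 members (*Ppargc1a* and *Esrra*) were called for homozygous against wild type, where 37% of all genes were called, and 2 per mutant allele (25.5%). Over the fits without 1 library, 0 to 1 members were called for homozygous against wild type: without wild-type replicate 3, *Esrra* was called beside 2161 of all genes (15.8%), against 46 with all libraries. Without homozygous replicate 3 no member and 279 genes were called. No member was called for heterozygous against wild type or homozygous against heterozygous in any alternative.

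Several small homozygous minus wild-type differences changed sign. With median-ratio scaling *Ppara* was at −0.16, *Esrrg* at −0.070, *Nrf1* at −0.087, *Tfam* at −0.21 and *Tfb2m* at −0.055. With quantile normalization they were at −0.23, −0.13, −0.14, −0.15 and −0.072, and *Ppard* at −0.043. *Tfam* was at −0.024 after rescaling without mitochondrially encoded and haemoglobin genes, at −0.00030 with library weights and at −0.0069 without the 3 libraries with transcripts of other organs, where *Ppara* was at −0.12. Leaving out 1 library at a time gave −0.26 to 0.28 for *Ppara*, −0.016 to 0.11 for *Tfam*, −0.0014 to 0.37 for *Esrrg* and −0.31 to 0.016 for *Ppargc1b*.

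Among the ratios, the same fits gave −0.27 to 0.041 for *Esrrg* to *Esrra*, homozygous against wild type, and −0.14 to 0.17, homozygous against heterozygous. They gave −0.26 to 0.15 for *Tfb2m* to *Polrmt*, homozygous against wild type, −0.036 to 0.43 for *Tfam* to *Polrmt*, homozygous against heterozygous, and −0.018 to 0.35 for *Ppara* to *Ppard*, heterozygous against wild type. The other 10 differences of ratios kept their direction. Of the other members' differences, those for heterozygous against wild type ranged from 0.049 to 0.39 for *Ppargc1b*, 0.16 to 0.46 for *Ppard* and 0.18 to 0.35 for *Esrra*, and for homozygous against wild type from 0.12 to 0.41 for *Ppard*, 0.14 to 0.36 for *Polrmt*, 0.064 to 0.22 for *Nrf1* and 0.097 to 0.29 for *Tfb2m*.

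The distance of a list's median from that of all genes, homozygous against wild type, also moved. For partners and upstream regulators it was 0.10, 0.21 without the filter on low values and 0.055 without wild-type replicate 1. Over all alternatives it ranged from −0.16 to 0.071 for the genes of mitochondrial DNA and from −0.089 to 0.091 for PPAR targets, on both sides of 0.

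With the replicate block (replicate number as a block, though the titles do not give it as a pairing), 0 members were called in each comparison, and 17 genes for homozygous against wild type, 1 for heterozygous against wild type, 1 for homozygous against heterozygous and 23 per mutant allele, against 46, 2, 6 and 83. With only the 2 groups compared in the fit, 11 genes were called for homozygous against wild type. With sex as a covariate 32 were. The cause of these changes was not tested. TPM keeps no depth, so counting error is unknown, and with 3 libraries a group the median standard error of a log2 difference was 0.18.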
